A study of Mus musculus with 6 samples.

Results

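The genes described here encode 10 nuclear-encoded subunits of the mitochondrial ATP synthase. They were chosen by name (Atp5a1, Atp5b, Atp5c1, Atp5d, Atp5f1, Atp5g1, Atp5h, Atp5j, Atp5l and Atp5o) among 37008 gene names on the arrays, and every transcript probe carrying one of these names was kept, 23 in all. RNA from the kidney cortex of male C57BL/6 mice was hybridised to 6 single-colour Agilent arrays, 3 labelled C3aR-/- control and 3 labelled WT control. C3aR-/- mice lack the receptor for the complement fragment C3a; the allele, and whether the deletion is limited to some cells, are not given in the sources used here. Both genotypes came from the non-diabetic arm: feeding began at 8 weeks of age with a chow that drew 10% of its calories from fat, vehicle was injected in place of streptozotocin after 4 weeks, and tissue was taken at the 20-week time point after induction. No label says outright that the arrays come from separate animals; a p-value here reflects only how far these samples spread, which may be technical.

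The ATP synthase sits in the inner mitochondrial membrane and makes ATP from ADP and phosphate with the energy of protons that flow back into the matrix. Protons turn a ring of c subunits, the ring turns a central stalk, and the stalk drives the catalytic head, while a peripheral stalk keeps the head from turning along. In the kidney cortex the proximal tubule is dense in mitochondria and uses the ATP to drive sodium transport, so transcripts of this complex are abundant there.

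All values below rest on the following. A level is the log2 processed signal of a probe minus the 75th percentile of its array. A log2 change is the C3aR-/- mean minus the WT mean, so positive values mean a higher level in C3aR-/- cortices. Every adjusted p of a gene or probe is from limma, with Benjamini-Hochberg adjustment over all 30931 tested probes (probe fit) or over all 20419 tested genes, each represented by its brightest tested probe (gene fit); calls are made at an adjusted p under 0.05. Between 56.5% and 59.3% of the 59305 transcript spots of an array were well above background, and no spot was saturated. The C3ar1 probe was well above background on 1 of 6 arrays, with levels of -5.60, -5.47 and -6.05 in C3aR-/- cortices and of -5.03, -6.17 and -5.60 in WT cortices. These overlap, so the array gives no check of the genotype. C3aR-/- replicate 1 stood apart, with 145 spots flagged as uneven against 2 to 8 on the other arrays, so changes are also given without it. The 3 C3aR-/- arrays shared a slide and a scan and the 3 WT arrays shared another, so genotype and slide cannot be told apart in any comparison here.

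A selection of the probes described below is printed here from the array files, 5′ to 3′ in the sense of the transcript, with coordinates on mouse build mm9. It holds called and uncalled probes, and not every called probe is in it. The Atp5h pair is shown because its probes share 14 bases, given in capitals, and neither separated the genotypes. The Atp5f1 probe crosses an exon junction (683 bases of genome for 60 bases of probe) and is the only probe of that gene that was called. The Atp5b and Atp5j probes stand for called genes, and the Atp5o probe is the one that moved less than the other probe of its gene. Each printed probe holds at least 1 reading frame without a stop codon.
Atp5h, base 391 of its transcript, chr11:115277134-115277193, minus strand: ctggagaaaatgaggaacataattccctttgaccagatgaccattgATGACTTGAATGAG
Atp5h, base 437, chr11:115277088-115277147, minus strand: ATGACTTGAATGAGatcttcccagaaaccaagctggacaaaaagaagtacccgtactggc
Atp5f1, base 1371, chr3:105745973-105746655, minus strand: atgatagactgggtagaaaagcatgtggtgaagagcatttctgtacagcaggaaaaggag
Atp5b, base 1318, chr10:127526024-127526083, plus strand: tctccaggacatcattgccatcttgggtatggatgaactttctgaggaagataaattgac
Atp5j, base 638, chr16:84828711-84828770, minus strand: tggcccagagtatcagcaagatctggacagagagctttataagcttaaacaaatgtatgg
Atp5o, base 638, chr16:91925542-91925601, minus strand: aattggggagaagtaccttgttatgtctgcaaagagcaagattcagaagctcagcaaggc

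The ATP synthase genes were mostly higher in C3aR-/- cortices, by small amounts. In the gene fit 4 of 10 rose (Atp5a1, Atp5b, Atp5j and Atp5o, by 1.18-fold to 1.27-fold) and 0 fell, beside 7.1% of all genes called higher and 7.33% called lower. The other 6 did not pass the test; 4 of them had positive changes, so that 8 of 10 changes were positive beside 52.7% of all genes, and Atp5f1 and Atp5h had changes of -0.05 and -0.03. The median log2 change of the 10 genes was 0.20, beside 0.02 over all tested genes, and 0.21 without C3aR-/- replicate 1. Leaving out any 1 of the 6 arrays ended all 4 calls, with adjusted p-values then between 0.0579 and 0.117. Without C3aR-/- replicate 1, for one, 0 of 10 were called higher, beside 3.22% of all genes. No gene was called in the authors' deposited log2 values either, where the median was 0.08, and Atp5j alone was called after quantile normalisation, where the median was 0.13 and 8.06% of all genes were called higher.

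Of the 23 probes, 21 were tested. The dim Atp5d probe for an Ensembl transcript was not well above background on any array, and the Atp5h probe at base 391 had its spot flagged as an outlier on C3aR-/- replicate 1. Of the 21, 17 (81%) had a positive change, beside 54.7% of all tested probes, and 4 a negative one, with a median of 0.23 beside 0.03 over all tested probes. The genotypes did not overlap, with C3aR-/- higher, for 16 probes (76.2%), beside 22.8% of all tested probes. One probe, Atp5f1 at base 210, had all C3aR-/- arrays below all WT arrays, beside 16.8% of all probes. The adjusted p passed for 4 probes (19%), all higher, beside 6.18% of all probes called higher and 5.49% called lower. At an unadjusted p under 0.05, 11 of the 21 probes were higher and 0 lower, beside 18.6% and 13.3% of all tested probes. The Atp5j probe at base 36 entered the test only through the C3aR-/- arrays. Of the 20 probes well above background on all 6 arrays, 16 had a positive change and 15 did not overlap with C3aR-/- higher. The median of these 20 was 0.21, beside 0.02 over all probes that passed this stricter filter. The shares of all such probes that were positive or did not overlap are not given here.

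**Figure D1:**
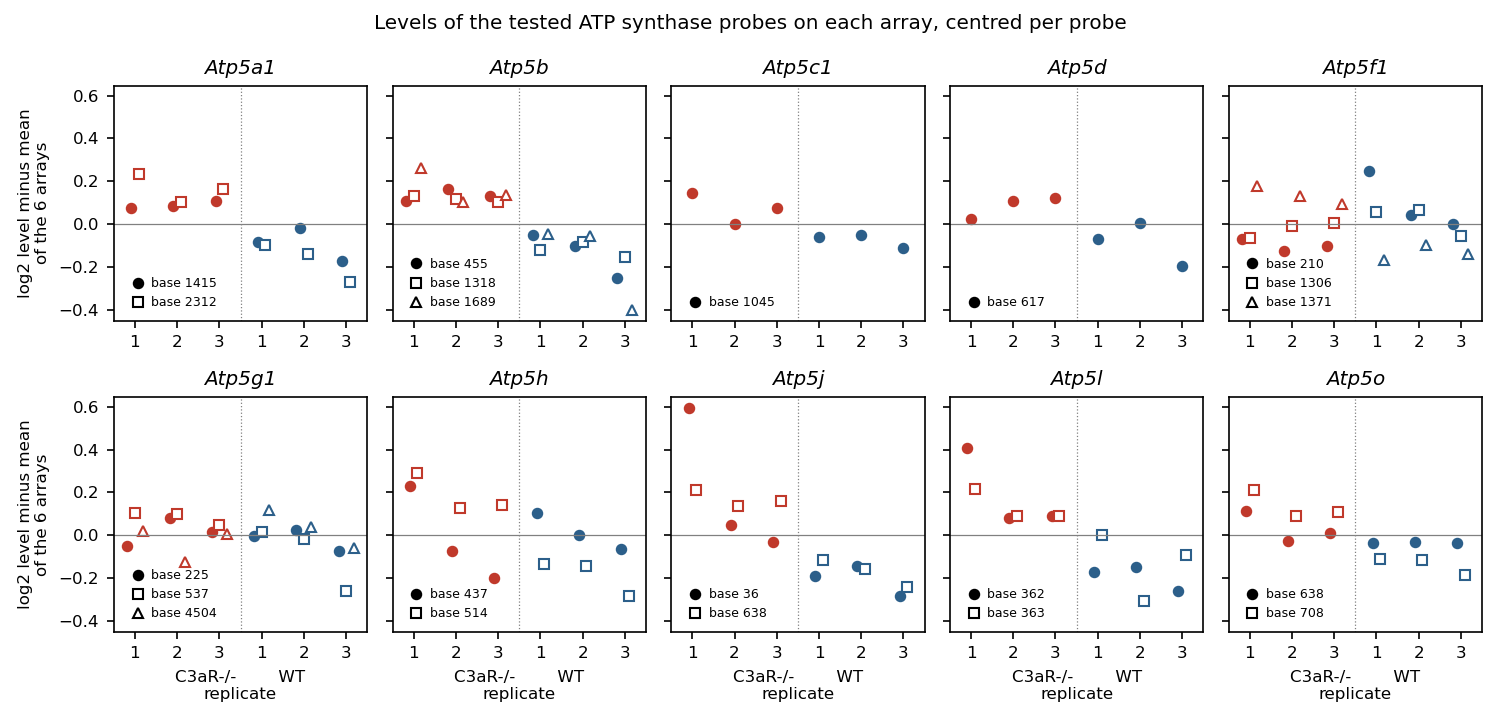
Log2 level of each tested probe on each array, minus its mean over the 6 arrays, for C3aR-/- replicates 1 to 3 (red, left) and WT replicates 1 to 3 (blue, right). Marker shapes separate the probes of a gene by their start base in the transcript. Most red points lie above 0, and the probes of Atp5f1, Atp5g1 and Atp5h have changes of both signs.

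The catalytic head consists of alternating α and β subunits around the γ subunit of the central stalk, with δ at the foot of that stalk. Atp5a1, on chromosome 18, encodes α. The probe that stands for it, at base 2312, read 7.65, 7.52 and 7.58 in C3aR-/- cortices, against 7.32, 7.28 and 7.14 in WT cortices. The groups did not overlap, and the change of 0.34 (SE 0.07, 95% interval 0.15 to 0.52, a 1.26-fold difference) passed in the gene fit with limma (adjusted p = 0.0367) and was 0.30 without C3aR-/- replicate 1 (adjusted p = 0.086). Its probe across an exon junction, at base 1415, read 5.52, 5.53 and 5.55 in C3aR-/- cortices, against 5.36, 5.42 and 5.27 in WT cortices. That change of 0.18 (SE 0.07) also had no overlap but was not called in the probe fit (adjusted p = 0.127).

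Atp5b encodes β, which holds the catalytic sites. Its brightest probe, printed above, read 7.18, 7.16 and 7.15 in C3aR-/- cortices, against 6.93, 6.97 and 6.90 in WT cortices. The replicates lay close together (SD 0.0153 in C3aR-/-, 0.0347 in WT) and the change of 0.23 (SE 0.05, 95% interval 0.10 to 0.37) passed in the gene fit (adjusted p = 0.0411); it was 0.23 without C3aR-/- replicate 1 (adjusted p = 0.0901). The probe at base 1689 gave 7.13, 6.97 and 7.01 in C3aR-/- cortices, against 6.83, 6.81 and 6.47 in WT cortices, with WT replicate 3 far below the other WT arrays. The probe at base 455, across an exon junction, gave 3.11, 3.17 and 3.13 in C3aR-/- cortices, against 2.95, 2.90 and 2.75 in WT cortices. All 3 Atp5b probes were thus higher on every C3aR-/- array than on any WT array, with changes of 0.23, 0.33 and 0.27. None of the 3 was called in the limma probe fit (adjusted p = 0.0539, 0.114 and 0.0694).

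Atp5c1 encodes γ, the rotating shaft. Its single probe, at chr2:9977718-9977777, read 7.20, 7.06 and 7.14 in C3aR-/- cortices, against 7.00, 7.01 and 6.95 in WT cortices. The genotypes did not overlap, but the change of 0.15 (95% interval -0.01 to 0.30) was not called in the gene fit (adjusted p = 0.163), and it was -0.02 in the authors' deposited log2 values. Atp5d encodes δ. Its tested probe read 5.45, 5.54 and 5.55 in C3aR-/- cortices, against 5.36, 5.43 and 5.23 in WT cortices. Here the lowest C3aR-/- array was only just above the highest WT array, and the change of 0.17 (95% interval -0.01 to 0.35) was not called (gene fit, adjusted p = 0.167).

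The peripheral stalk is built from subunit b (Atp5f1), subunit d (Atp5h), coupling factor 6 (Atp5j) and OSCP (Atp5o), the subunit that joins the stalk to the head. Atp5j gave the lowest adjusted p of the 10 genes. Its probe at base 638 read 6.06, 5.98 and 6.01 in C3aR-/- cortices, against 5.73, 5.69 and 5.61 in WT cortices. The gap between the genotypes exceeded the spread within each (means 6.02 ± 0.04 and 5.68 ± 0.06, SD, n = 3 each), and the change of 0.34 (SE 0.06, 95% interval 0.19 to 0.49) passed in the gene fit with limma (adjusted p = 0.0244). It was 0.32 without C3aR-/- replicate 1 (adjusted p = 0.0591), 0.30 after quantile normalisation and 0.19 in the deposited log2 values. The dim Atp5j probe at base 36, for an Ensembl transcript only, was well above background on 3 of 3 C3aR-/- arrays and 0 of 3 WT arrays, so that it entered the test through the C3aR-/- arrays and no fold is given for it (probe fit, adjusted p = 0.165). Its levels were -4.11, -4.66 and -4.74 in C3aR-/- cortices and -4.90, -4.85 and -4.99 in WT cortices; C3aR-/- replicate 1 was the highest, and the change was 0.41 with it, 0.21 without it and 0.082 with normexp background correction.

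Atp5o was read by neighbouring probes, of which the brighter was called in the gene fit but neither in the probe fit. At base 708 the levels were 7.16, 7.03 and 7.05 in C3aR-/- cortices, against 6.83, 6.83 and 6.76 in WT cortices. This change of 0.27 (SE 0.06, 95% interval 0.12 to 0.43) was called in the gene fit (adjusted p = 0.0407) and was 0.24 without C3aR-/- replicate 1 (adjusted p = 0.0872). In the probe fit with all arrays it was just short of a call (adjusted p = 0.0506). At base 638, the probe printed above, the levels were 4.04, 3.90 and 3.94 in C3aR-/- cortices, against 3.89, 3.90 and 3.90 in WT cortices. There the lowest C3aR-/- array exceeded the highest WT array by less than 0.01, with a change of 0.07 (probe fit, adjusted p = 0.513).

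Of the tested Atp5h probes 1 was called in the probe fit. The probe at base 514 read 6.22, 6.05 and 6.07 in C3aR-/- cortices, against 5.79, 5.78 and 5.65 in WT cortices. The genotypes stood clear of each other, and the change of 0.37 (SE 0.08, 95% interval 0.18 to 0.57) was called in the probe fit (adjusted p = 0.0385), or 0.32 without C3aR-/- replicate 1 (adjusted p = 0.0804). The probe at base 437, which ends 17 bases upstream and stands for the gene, read 6.37, 6.06 and 5.94 in C3aR-/- cortices, against 6.24, 6.14 and 6.08 in WT cortices. These groups overlapped, the C3aR-/- arrays spread more widely (SD 0.22) than the WT arrays (SD 0.0832), and the change was -0.03 (95% interval -0.33 to 0.27). The untested probe at base 391, which shares 14 bases with it, read 6.92 and 6.97 on C3aR-/- replicates 2 and 3, against 6.96, 6.96 and 6.92 in WT cortices, which overlap as well; its change without C3aR-/- replicate 1 was -0.01.

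Of the Atp5f1 probes 1 was called. The junction probe at base 1371, printed above, read 6.13, 6.08 and 6.05 in C3aR-/- cortices, against 5.79, 5.85 and 5.81 in WT cortices. It did not overlap and was called in the probe fit with a change of 0.27 (SE 0.06, adjusted p = 0.0429), or 0.25 without C3aR-/- replicate 1 (adjusted p = 0.0948). The probe at base 1306 of another transcript of the gene, which stands for the gene, read 6.37, 6.43 and 6.44 in C3aR-/- cortices, against 6.50, 6.51 and 6.38 in WT cortices. Those values overlapped (change -0.05, 95% interval -0.20 to 0.11). A dim probe for an Ensembl transcript, at base 210, read -3.25, -3.30 and -3.28 in C3aR-/- cortices, against -2.93, -3.13 and -3.18 in WT cortices; it was lower on every C3aR-/- array but not called (change -0.20, probe fit, adjusted p = 0.173).

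**Figure D2:**
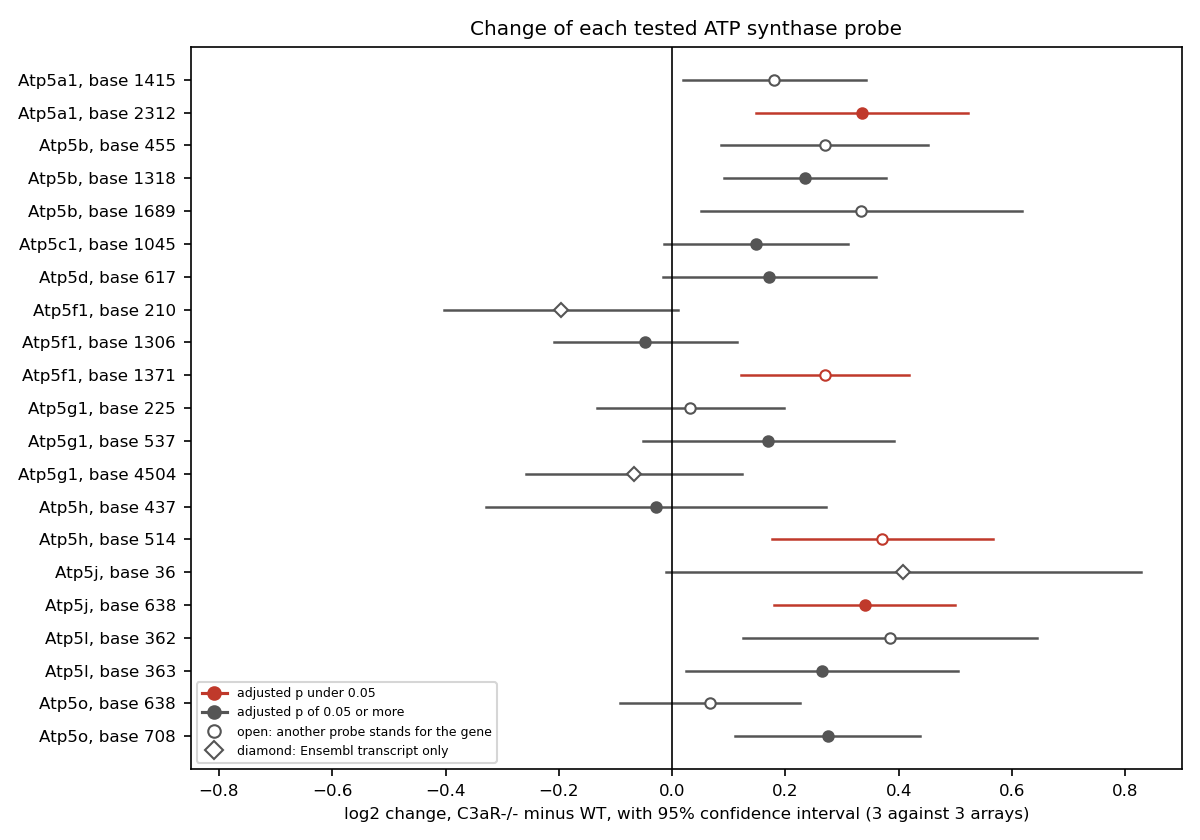
Log2 change, C3aR-/- minus WT, of the 21 tested probes with 95% confidence intervals from the probe fit (3 against 3 arrays). Red marks an adjusted p under 0.05 (4 probes), filled symbols the probe that stands for its gene, and diamonds probes for Ensembl transcripts only; 17 points lie right of 0.

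In the membrane, the c subunits form the rotating ring and subunit g belongs to the part that links neighbouring ATP synthases. Atp5g1, one of the genes for subunit c, was read by 3 tested probes. The brightest, at base 537, read 6.56, 6.56 and 6.50 in C3aR-/- cortices, against 6.47, 6.44 and 6.20 in WT cortices, with a change of 0.17 (95% interval -0.05 to 0.39; gene fit, adjusted p = 0.233). The probes at bases 225 and 4504 overlapped between the genotypes, with changes of 0.03 and -0.07. Subunit c is the same mature protein from Atp5g1, Atp5g2 and Atp5g3. Atp5g2 read 6.84, 6.89 and 6.88 in C3aR-/- cortices, against 6.99, 7.06 and 6.97 in WT cortices, a change of -0.14 (gene fit, adjusted p = 0.156) that was -0.26 after quantile normalisation (adjusted p = 0.0371), where it was called lower. Atp5g3 read 6.75, 6.58 and 6.62 in C3aR-/- cortices, against 6.50, 6.44 and 6.37 in WT cortices, a change of 0.21 (adjusted p = 0.104). Its other probe, for an Ensembl transcript, was at -0.12. The 3 genes therefore had changes of differing sign, none of which passed with the 75th percentile.

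Atp5l encodes subunit g. Its probe at base 363 read 7.35, 7.23 and 7.23 in C3aR-/- cortices, against 7.14, 6.83 and 7.05 in WT cortices. Its other probe, from a GenBank sequence, read 6.32, 6.00 and 6.01 in C3aR-/- cortices, against 5.74, 5.77 and 5.66 in WT cortices. Both were higher on all C3aR-/- arrays, with changes of 0.26 (gene fit, 95% interval 0.03 to 0.50, adjusted p = 0.119) and 0.38 (probe fit, adjusted p = 0.0676), and neither was called.

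Because the probes of a gene gave changes of different size or sign, the difference between each probe and the brightest probe of its gene was taken within every array and compared between the genotypes in 11 pairs. In 5 pairs the 3 C3aR-/- and 3 WT differences did not overlap: Atp5h base 514 over base 437 (shift of 0.40), Atp5f1 base 1371 over base 1306 (0.32), Atp5g1 base 4504 over base 537 (-0.24), Atp5o base 638 over base 708 (-0.21) and Atp5a1 base 1415 over base 2312 (-0.16). The share of such pairs over all genes with several probes is not given here, so whether 5 of 11 is usual on these arrays cannot be told. A two-sided exact permutation test gives each of the 5 p = 0.1, the smallest that 3 against 3 arrays allow, and 0.22 after Benjamini-Hochberg adjustment over the 11 pairs. That smallest p is already above the threshold for a call, so no pair could have passed, whatever its shift. The test therefore cannot decide whether the probes of a gene changed unequally. The values show only that the differences of the genotypes did not overlap in 5 of 11 pairs.

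The arrays themselves were not alike for these genes. The mean level of the 21 tested probes was 5.06, 4.95 and 4.96 in C3aR-/- cortices, against 4.85, 4.83 and 4.73 in WT cortices. C3aR-/- replicate 1 was the highest of the 6 arrays for 14 of 21 probes, and WT replicate 3 the lowest for 14 of 21. Without WT replicate 3 the change of Atp5a1 was lowest among the settings that leave out an array, at 0.28.

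Most of these probes gave a high signal: 16 of the 21 lay in the top twentieth of tested probes by mean level. In that twentieth the median change over all 1547 probes was 0.09, 6.33% were called higher and 40.9% had all C3aR-/- arrays above all WT arrays. The 16 ATP synthase probes there had a median change of 0.25, and 13 did not overlap with C3aR-/- higher. After quantile normalisation the medians were 0.14 for the 16 probes and 0.03 for the whole twentieth. In the deposited log2 values they were 0.09 and 0.00. The part of brightness and scaling in the rise was not tested; the median of the 16 probes was above that of their twentieth under each of these 3 scalings.

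**Figure D3:**
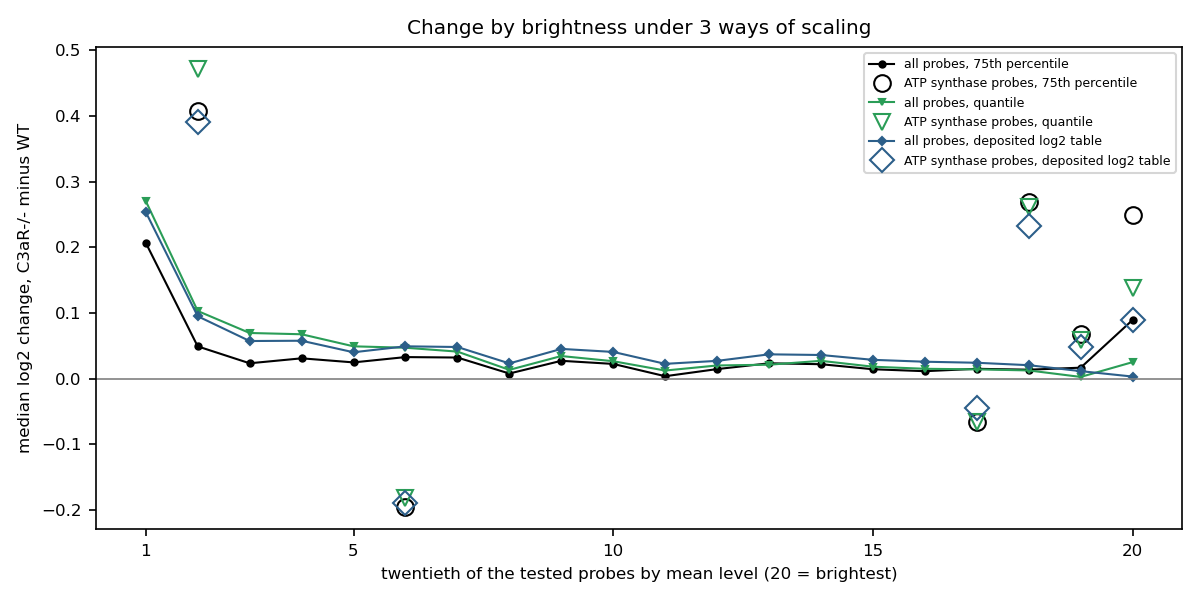
Median log2 change, C3aR-/- minus WT, in each twentieth of the tested probes by mean level (20 is the brightest), for scaling to the 75th percentile, quantile normalisation and the deposited log2 values. Lines join all probes and large open symbols give the ATP synthase probes; in the brightest twentieth these lie at 0.25, 0.14 and 0.09, above the medians of all probes at 0.09, 0.03 and 0.00.

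The direction of most genes was the same however the arrays were scaled. Atp5a1, Atp5b, Atp5d, Atp5g1, Atp5j, Atp5l and Atp5o had positive changes under all 16 alternatives run, but not all of these could alter a change. The filters on dim probes, the kept flags, the intensity trend and the replicate block left the changes of these genes as they were. Their sign under those settings was therefore no check. The check rests on normexp, quantile and median scaling, the deposited log2 values, the mean of the probes of a gene and leaving out arrays. The mean of the probes also left Atp5d, with its single tested probe, as it was. Atp5c1 was negative in the deposited log2 values. Atp5f1 and Atp5h were negative with the 75th percentile, at -0.05 and -0.03, and positive after median scaling, at 0.00 and 0.02. In the other direction they were at -0.16 and -0.22 in the deposited log2 values and at -0.12 and -0.09 after quantile normalisation, none of them called. The -0.22 of Atp5h is from another probe, at base 391, whose spot on C3aR-/- replicate 1 was flagged as an outlier. The base 437 probe was at -0.13 in the deposited log2 values. With the mean of all probes of a gene in place of its brightest probe, Atp5h was at 0.17 and Atp5f1 at 0.01.

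**Figure D4:**
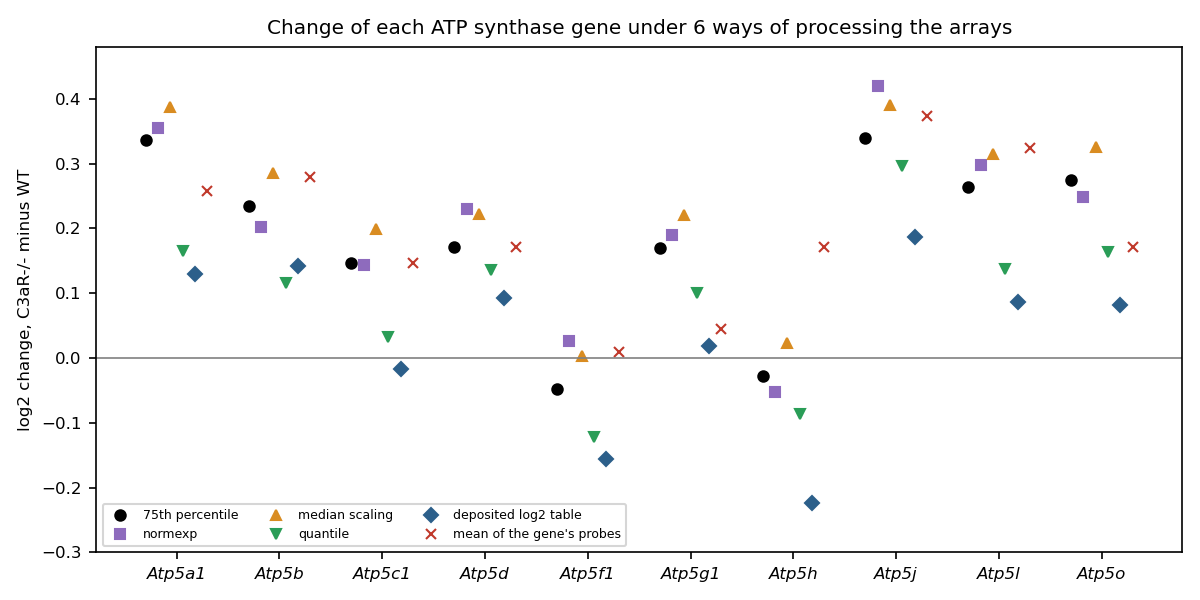
Log2 change, C3aR-/- minus WT, of each of the 10 genes under 6 ways of processing the arrays. Each symbol is one setting. The deposited log2 values and quantile normalisation give smaller changes than the 75th percentile for Atp5a1, Atp5b and Atp5o. In the deposited log2 values another probe stands for Atp5b and for Atp5h.

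Of 12 other tested genes of the complex (subunits, the inhibitor and assembly factors), 1 rose (8.33%) and 0 fell, near the 7.1% of all genes called higher. Of these changes 10 of 12 were positive, with a median of 0.12. The riser was Tmem70, an assembly factor of the complex. It read 3.32, 3.35 and 3.38 in C3aR-/- cortices, against 3.05, 3.17 and 3.01 in WT cortices, with no overlap, a change of 0.28 (SE 0.07, gene fit, adjusted p = 0.0462) and no call when any array was left out. Atp5e, for the ε subunit of the central stalk, had a change of 0.20 (adjusted p = 0.0791) and Atp5k, for subunit e, one of 0.21 (adjusted p = 0.143). The other probe of Atp5k was at 0.04. Atp5s, known as a coupling factor of the complex, had the highest change of the list at 0.37 without passing (adjusted p = 0.198). Its dim probe read -2.22, -1.95 and -1.98 in C3aR-/- cortices, against -2.21, -2.79 and -2.26 in WT cortices. These groups overlapped, and WT replicate 2 was far below the other WT arrays. Atp5j2, for subunit f, was at 0.13, Usmg5 at 0.10 and 2010107E04Rik at 0.11. Other probes of Atp5j2 and Usmg5 were at 0.24 and 0.18. Atpif1, the inhibitor that blocks ATP hydrolysis, was at 0.06. The assembly factors Atpaf1 and Atpaf2, which help α and β come together, were at 0.06 and -0.02. Other probes of Atpif1, Atpaf1 and Atpaf2 were at 0.02, 0.09 and 0.09, and none of these genes passed.

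Other lists hold genes that supply the enzyme, share its membrane or resemble it. Of 9 genes for adenine nucleotide and phosphate exchange, 0 rose and 1 fell (11.1%), beside 7.33% of all genes called lower, with a median of 0.06. The one that fell was Vdac3, a channel of the outer membrane, which read 4.86, 4.93 and 4.87 in C3aR-/- cortices, against 5.10, 5.19 and 5.10 in WT cortices (change -0.24, SE 0.06, gene fit, adjusted p = 0.0494). The adenine nucleotide carrier Slc25a4 had a change of 0.21 (adjusted p = 0.0669). Of 24 genes of respiratory complexes I to IV, 0 rose and 0 fell by limma, and the median was 0.14. There 22 of 24 changes were positive (91.7%), beside 52.7% of all genes, and 8 were higher and 0 lower at an unadjusted p under 0.05, beside 18.1% and 15.3% of all genes. The lowest adjusted p there was 0.052. The vacuolar proton pumps, relatives of the ATP synthase that run in reverse to acidify compartments, had 0 of 15 genes called, 2 of 15 higher and 0 lower at an unadjusted p under 0.05, where all genes had 18.1% and 15.3%, and a median of 0.06.

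Of 12 regulators of mitochondrial genes, 1 rose (8.33%) and 3 fell (25%), beside 7.1% and 7.33% of all genes. Gabpa and Nrf1 encode transcription factors known to bind promoters of respiratory chain genes. Gabpa read -0.02, -0.13 and 0.03 in C3aR-/- cortices, against 0.35, 0.45 and 0.41 in WT cortices, a change of -0.44 (SE 0.07, gene fit, adjusted p = 0.0168), but another Gabpa probe had a change of 0.28. Nrf1 read 0.13, 0.01 and 0.06 in C3aR-/- cortices, against 0.47, 0.40 and 0.42 in WT cortices, a change of -0.37 (SE 0.06, adjusted p = 0.0203), with other probes up to -0.04. Polrmt, the mitochondrial RNA polymerase, fell by 0.29 on the log2 scale (SE 0.06, adjusted p = 0.0364). Ppara, a regulator of fatty acid oxidation, rose by 0.57 (SE 0.12, adjusted p = 0.0361), while its other probe was at 0.00. The coactivator Ppargc1a had a change of 0.27 (adjusted p = 0.0553). Leaving out 1 array ended the call of Nrf1 in 5 of 6 cases, of Gabpa in 2 and of Polrmt, Ppara and Vdac3 in all 6.

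**Figure D5:**
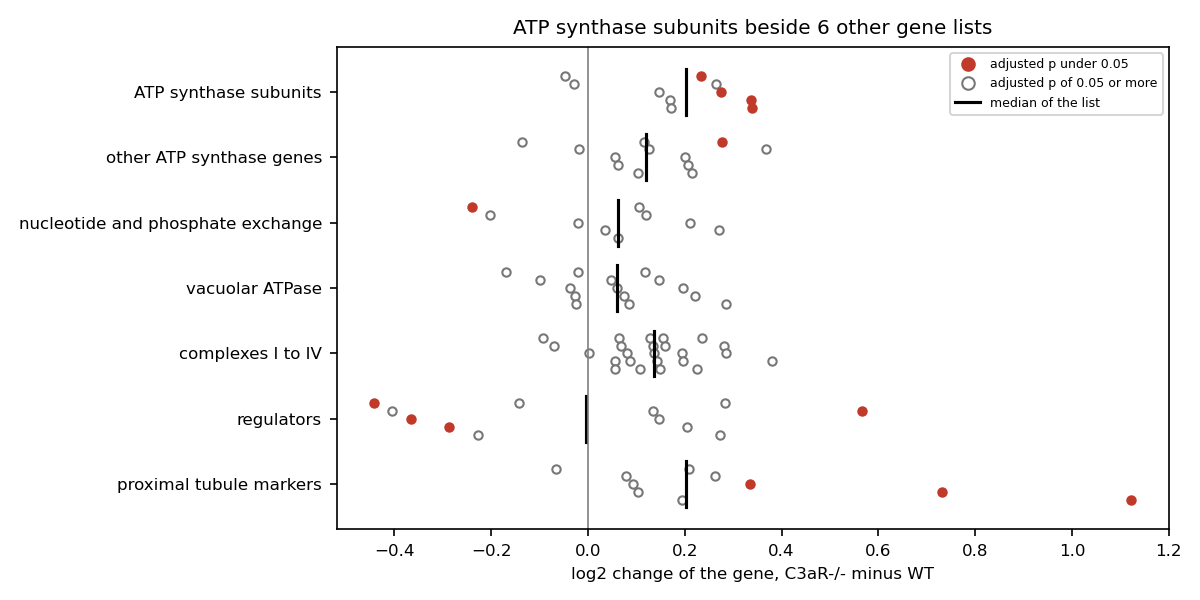
Log2 change of each tested gene, C3aR-/- minus WT, in the ATP synthase subunits and 6 other lists, one row per list, with called genes filled in red and a bar at each median. The medians are 0.20 for the ATP synthase subunits, 0.12, 0.06, 0.06, 0.14 and 0.00 for the next 5 lists and 0.20 for the proximal tubule markers.

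Markers of cortical tubules were present, and several of the proximal tubule were also higher. Of 10 proximal tubule markers 3 rose and 0 fell, 9 changes were positive and the median was 0.20, where 7.1% of all genes were called higher and 7.33% lower. Their summed signal, relative to the 75th percentile of the array, was 708 to 718 in C3aR-/- cortices and 603 to 656 in WT cortices, beside 1098 to 1170 and 936 to 1013 for the 10 ATP synthase genes. Slc6a19, which takes up neutral amino acids, rose by 1.12, the lactate transporter Slc5a12 by 0.73 and the glucose transporter Slc5a2 by 0.34, while Slc34a1, a phosphate transporter, was at 0.09. Of 4 principal cell markers 3 rose (Aqp2, Aqp3 and Scnn1g). Of 4 tested B and plasma cell markers 2 fell (Jchain and Mzb1), with summed signals of 0.566 to 0.726 in C3aR-/- cortices and 2.82 to 4.19 in WT cortices. In the other marker lists 1 of 5 genes of the thick ascending limb (Cldn16) rose, 1 of 4 of the distal convoluted tubule (Pvalb) and 1 of 4 of intercalated cells (Slc4a1) fell, 1 of 4 macrophage markers (Cd68) fell, and of 4 endothelial markers 1 rose (Pecam1) and 1 fell (Kdr). None of 4 podocyte and 3 red blood cell markers was called by limma, with 1 and 0 of them higher and 0 lower at an unadjusted p under 0.05. In bulk tissue, more cells of a type and more RNA per cell cannot be told apart, and the part of cell composition in the ATP synthase values was not tested. No adipocyte marker was well enough above background to be tested, and of 3 skeletal muscle markers 1 was tested, at -0.09.

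Among 13974 other genes with an official symbol, the 5 whose centred profile over the 6 arrays lay closest to the mean profile of the 10 members were Mmaa, Lrp2, Ccdc107, Dlst and Lrpprc, with root mean square differences of 0.012 to 0.019 on the log2 scale. Lrp2 is the endocytic receptor megalin of the proximal tubule, and Dlst a subunit of the 2-oxoglutarate dehydrogenase complex. Of the candidates, 1317 lay as close as the median member, so this profile was common on these arrays.

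Upstream sequence was examined for 9 of the 10 genes, in 12 windows of 250 bases before RefSeq start sites (GRCm38.p6); Atp5f1 is listed there as Atp5pb. The strings searched on both strands, chosen after the values were known, were CCGGAAG, known from binding sites of GABPA, then GCATGCGC, known from those of NRF1, then AAGATGGC, known from those of YY1, and lastly the CCAAT box and the TATA box (searched as TATAAA). The GABPA string was in the windows of Atp5h, Atp5j and Atp5l, 25% of the 12 windows, beside 6.91% of 32851 windows of all genes. The YY1 string was in 1 window (Atp5j), beside 1.56%, and the NRF1 string in 1 (Atp5l), beside 2.26%. The CCAAT box was in 6 windows of 5 genes, beside 33.8%, with overlapping matches on opposite strands in Atp5g1, and the TATA box in 1 window (Atp5l), beside 12.4%. Of the 3 called genes with a window, Atp5j held the GABPA string 61 bases and the YY1 string 88 bases before its second start site, Atp5b held 5 CCAAT boxes, and Atp5o held none of these strings. The window before the first start site of Atp5j held none of them either. A match is a description of the letters and not of a bound site. The windows of Atp5j and Atp5b are printed because these called genes share none of the searched strings, with all matches in capitals.
Atp5j, second start site, chr16:84834977-84835226, minus strand: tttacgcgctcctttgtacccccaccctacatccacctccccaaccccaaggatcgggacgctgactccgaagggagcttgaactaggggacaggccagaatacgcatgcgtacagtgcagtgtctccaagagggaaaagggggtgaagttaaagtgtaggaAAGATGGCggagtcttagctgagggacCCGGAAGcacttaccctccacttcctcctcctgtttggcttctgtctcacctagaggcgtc
Atp5b, chr10:128083057-128083306, plus strand: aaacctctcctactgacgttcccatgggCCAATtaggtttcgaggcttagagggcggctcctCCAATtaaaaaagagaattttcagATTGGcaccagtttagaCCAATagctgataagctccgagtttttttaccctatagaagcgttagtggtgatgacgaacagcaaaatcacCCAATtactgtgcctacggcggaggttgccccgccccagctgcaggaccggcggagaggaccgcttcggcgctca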

How the data were processed

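Per the file headers, Agilent Feature Extraction 10.7.1.1 turned the scanner images into a background-subtracted intensity per spot (the processed signal), a mean and a background intensity, and flags. The authors also deposited log2 values of these arrays. Its columns shared 1 set of sorted values to within 0.000903, and each followed the log2 processed signal of its array (correlation 0.995 to 0.996). Its other steps are not known here, and it served as an alternative. Groups were read from the titles.

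The 75th percentile over transcript spots was subtracted from the log2 processed signal of each array. Control spots and outlier spots were dropped and spots of a probe averaged. A probe was tested if it was well above background on the 3 arrays of either genotype. The test was limma 3.58.1 with lmFit and eBayes (R 4.3.3; two-sided, Benjamini-Hochberg adjustment). The brightest tested probe stood for a gene. The fit was tested on simulated data. Precision is limited by having 3 arrays a group. Gene symbols came from RefSeq (GRCm38.p6), which matched 32994 of 56605 probes by accession; mm9 coordinates are those of the array files, with no annotation of exons. Same-numbered arrays of the genotypes correlated at 0.04, 0.01 and -0.06 in their deviations from the group means, so the numbers do not pair the samples.

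The members, the lists, the marker genes, the tests and the alternatives were chosen with earlier results of these data known. Named genes are all members, all tested genes of the list of other ATP synthase genes, up to 4 called genes of each other list of related genes and the 5 nearest profiles; other genes, markers included, were named after their values were seen. The alternatives were normexp background correction (offset 50), quantile and median scaling, the deposited log2 values, 2 filters on dim probes, flags kept, an intensity trend, the mean of the probes of a gene, a replicate block and leaving out each array. Atp5i, mt-Atp6 and mt-Atp8 were not analysed here.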

Additional observations from a re-analysis of the deposited data

How the results depend on the processing

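Of 10 ATP synthase genes, 4 were called higher; the count was 1 after quantile normalisation and 0 in the deposited log2 values, with the mean of the probes of a gene, without a filter on dim probes, with the replicate block and in all 6 fits that left out an array (0 to 0). Of the probes, 4 were called higher, 7 with normexp, 8 with an intensity trend, 2 after quantile normalisation, and 0 in the deposited log2 values, without the filter, with the replicate block and without any 1 array (0 to 0). The median change of the probes was 0.14 after quantile normalisation and 0.084 in the deposited log2 values, and that of the genes 0.13 and 0.084. Over all tested probes the calls in either direction numbered 3612. The number was 3904 with normexp, 4890 with an intensity trend, 4152 after quantile normalisation and 3430 in the deposited log2 values. It was 927 without the filter, 594 with the replicate block and 598 to 1891 without 1 array. Of all tested genes 1449 were called higher, 1645 after quantile normalisation, 1309 in the deposited log2 values and 1196 with the mean of the probes of a gene. Without the filter 386 of 36966 genes were called higher, and with the replicate block 249 of 20419. In the fits without 1 array 240 to 667 genes were called higher, of 20505 to 20716 tested. Few of all genes were thus called where no member was. No setting called a member lower. The cause of these changes was not tested. Leaving out an array also leaves fewer samples, and dropping the filter also tests more probes.

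Calls of single genes were lost with their direction kept. Atp5a1 was at 0.17 after quantile normalisation, 0.13 in the deposited log2 values, 0.26 with the mean of its probes, 0.34 without the filter (adjusted p = 0.0856) and with the replicate block (adjusted p = 0.0837), and 0.28 to 0.37 without 1 array. Atp5b was at 0.12, 0.14, 0.28, 0.23 and 0.23 in that order of settings, and 0.22 to 0.25 without 1 array. Atp5o was at 0.16, 0.081, 0.17, 0.27 and 0.27, and 0.24 to 0.30 without 1 array. Atp5j was at 0.19 in the deposited log2 values, 0.37 with the mean of its probes, 0.34 without the filter and with the replicate block, and 0.30 to 0.37 without 1 array. The sign turned for Atp5c1 in the deposited log2 values (-0.017), for Atp5f1 with normexp (0.026), median scaling (0.0037) and the mean of its probes (0.0087), and for Atp5h with median scaling (0.023), the mean of its probes (0.17) and in 3 of 6 fits without 1 array (-0.066 to 0.064), none of which was called. The probe at base 391 stood for Atp5h in the deposited log2 values, with flags kept and without C3aR-/- replicate 1. In the deposited log2 values the probe at base 1689 stood for Atp5b, while the printed Atp5b probe was at 0.059 there. The replicate numbers share only a number. Each number has an array of either genotype, so the block leaves every change as it is and can alter only the p-values. Dropping the filter likewise left the changes of Atp5a1, Atp5b, Atp5j and Atp5o as they were.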

Other observations

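A probe that the array files name Atp5c1-ps, which is not among the subunit genes and was picked out after its values were seen, read 4.40, 4.46 and 4.44 in C3aR-/- cortices, against 4.73, 4.77 and 4.77 in WT cortices. Its log2 change of -0.33 (SE 0.06, limma probe fit, adjusted p = 0.0265) ran opposite to that of the Atp5c1 probe, at 0.15. Leaving out any 1 array ended the call, with adjusted p-values up to 0.0925, and the change was -0.32 in the deposited log2 values. How far the probe also reads Atp5c1 transcripts was not tested.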
